A study of Homo sapiens with 5 samples.

Results

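LINC00958 is a long intergenic non-coding RNA gene on the short arm of human chromosome 11. It was described here together with 9 listed genes that flank it at 11p15. MICALCL, listed among them, is not in the annotation used here for positions and may not be separate from MICAL2. The 10 genes were chosen by name, as the silenced RNA and its listed neighbours, and each matched 1 of the 58174 gene rows of the table. The libraries came from Ishikawa cells, an established line of human endometrial carcinoma. In one group (sh-LINC00958, 3 libraries) the cells carried lentiviral hairpins against LINC00958, and in the other (sh-NC, 2 libraries) a negative control, after puromycin selection in both. No source used here gives the number of hairpins, their target sites or the time of harvest. Separate cultures are not stated for any group, so the spread behind every p-value is that between these libraries and may be technical. In such bulk libraries, fewer cells that express a gene and less of its RNA per cell cannot be told apart. Values are TPM, a relative abundance corrected for gene length and set to the same total in each library. The sequencing depth is therefore unknown.

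Long non-coding RNAs are transcribed and spliced like messenger RNAs but are not known to be translated, and some act on genes close to where they are made. LINC00958, also called BLACAT2, has been studied as an RNA that is abundant in several carcinomas. Its neighbours serve unrelated purposes. TEAD1 encodes a DNA-binding partner of the Hippo pathway coactivators YAP1 and TAZ, and PARVA encodes alpha-parvin, which ties integrin-linked kinase to actin at focal adhesions. MICAL2 encodes a flavin monooxygenase that oxidises actin, and MICALCL a protein related to its C-terminal part. ARNTL encodes BMAL1, a core transcription factor of the circadian clock, and FAR1 a fatty acyl-CoA reductase that supplies fatty alcohols for ether lipids such as plasmalogens. DKK3 encodes a secreted Dickkopf-family glycoprotein, RASSF10 a Ras-association domain protein, and BTBD10 a BTB domain protein.

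LINC00958 (ENSG00000251381) lies on the minus strand of GRCh38 at chr11:12961842-12989548. GENCODE release 29 gives it 7 transcripts of 580 to 1558 nt, and 6 of them begin with the same first exon and differ in the exon that follows. That exon is joined to 4 different second exons, 1 each in LINC00958-201 and LINC00958-203, 1 shared by LINC00958-202 and LINC00958-206 and 1 shared by LINC00958-205 and LINC00958-207. The deposited value is 1 number for the gene and does not tell these forms apart.

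The label of an epithelial line was checked against marker genes. Of 9 epithelial and endometrial markers, 7 had a mean of at least 1 TPM, and the 9 summed to 2390 to 2570 TPM per library. The steroid receptor genes ESR1 and PGR, also on that list, were each listed at 0 in 4 of 5 libraries. Their highest values were 0.0149 and 0.0264 TPM. The markers do not establish which line was used. Fibroblast markers summed to 4.95 to 5.89 TPM (1 of 7 at a mean of 1 TPM, DCN at 0), blood cell markers to 1.80 to 3.76 TPM (1 of 6, CD3E and HBB at 0) and endothelial markers to 4.39 to 6.90 TPM (3 of 5, KDR at 0). The number of genes with any TPM was 29411, 28804 and 28436 with the hairpin and 28086 and 27896 in the controls, so the groups did not overlap. Its part in the results was not tested.

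With the hairpin, LINC00958 stood at 67.2, 67.1 and 58.4 TPM, against 119.3 and 137.4 TPM in the controls. The groups did not overlap, and the level left with the hairpin was 50.04% of the control mean. The log2 fold change of TPM + 1 was -0.99 (SE 0.106, 95% interval -1.25 to -0.73, limma adjusted p = 0.0119). By the exact two-sided permutation test on TPM, p was 0.1, which is the lower limit for 3 libraries against 2. By its mean with the hairpin, 64.2 ± 5.05 TPM (SD, n = 3), LINC00958 still stood above 83% of the tested genes. LINC00958 was no longer called when sh-LINC00958 replicate 1 was left out (limma adjusted p = 0.0545), nor when either control was, number 1 (0.0672) or number 2 (0.0874). The fold change in fits without 1 library lay between -0.89 and -1.09 on the log2 scale.

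Of the 10 genes, 9 passed the filter of a mean of at least 1 TPM and entered the fit over 17049 genes. Past the threshold of an adjusted p of 0.05, LINC00958 and FAR1 fell and MICAL2 rose. Over all tested genes 5.68% were called lower and 4.12% higher, 9.80% in all. Apart from the silenced gene, 2 of 8 tested neighbours were called, a number too small to set against that background. The groups did not overlap for 5 of the 9 tested genes, against 49.9% of all tested genes. The median log2 fold change of the 8 neighbours, with MICAL2 and MICALCL counted apart, was 0.11, and that of all tested genes was 0.0014.

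**Figure D1:**
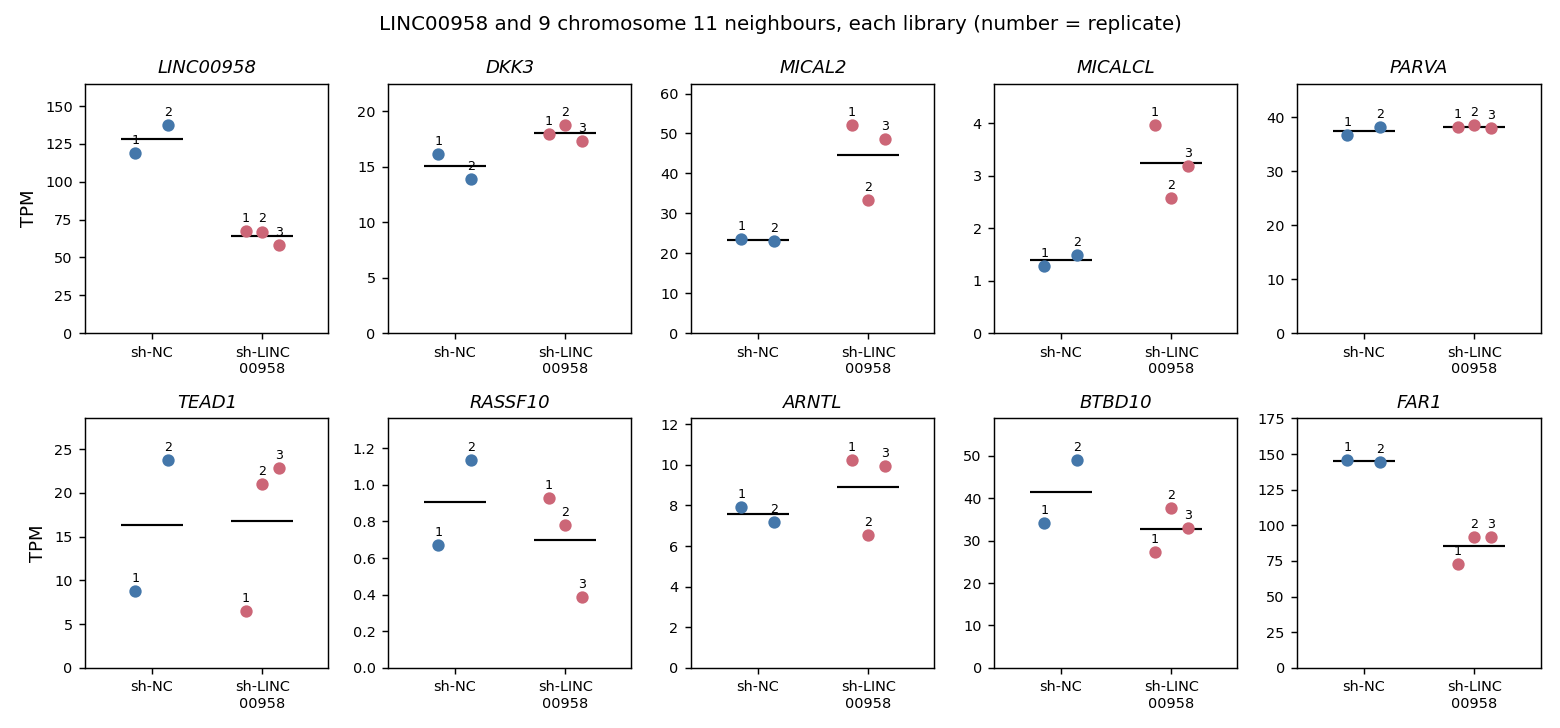
TPM (vertical axes, from 0) of LINC00958 and its 9 neighbours in each sh-NC (blue) and sh-LINC00958 (red) library. Numbers are replicate numbers and bars are group means. LINC00958 and FAR1 are lower and MICAL2, MICALCL and DKK3 higher in all 3 sh-LINC00958 libraries, while TEAD1 is low in the library numbered 1 of each group.

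In the control libraries FAR1 was the most abundant of the 10 genes, with LINC00958 next and RASSF10 last. By mean TPM the order was FAR1 (145.0), LINC00958 (128.4), BTBD10 (41.5), PARVA (37.5), MICAL2 (23.2), TEAD1 (16.3), DKK3 (15.03), ARNTL (7.57), MICALCL (1.39) and RASSF10 (0.905). The ranges of BTBD10 and PARVA overlapped, as did those of MICAL2 and TEAD1 and of TEAD1 and DKK3, so these neighbours in the order are not separated. With the hairpin FAR1 and LINC00958 were still first and second, at 85.45 and 64.2 TPM, and MICAL2 came next at 44.7 TPM, with a range that overlapped that of PARVA.

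FAR1, on the plus strand at chr11:13668670-13732346, starts 679 kb beyond the 5′ end of LINC00958. It measured 72.9, 91.9 and 91.55 TPM in sh-LINC00958 and 145.9 and 144.2 TPM in sh-NC. The control libraries were nearly equal, and every hairpin library lay well below them. The log2 fold change was -0.76 (SE 0.120, 95% interval -1.06 to -0.47, limma adjusted p = 0.0248). FAR1 is also an extreme in base composition. Its longest annotated transcript (5820 nt) has 31.3% G and C, and 0.288% of the tested genes had less. The tested genes were divided by GC content into 4 bins of nearly equal size, and FAR1 and TEAD1 were in the lowest (23.1% to 42.0%). That bin had a median of -0.29 on the log2 scale, and 664 of its 4250 genes were called lower and 46 higher. When the trend of the values on GC content and transcript length was removed, FAR1 was at -0.11 (-0.43 to 0.20 as the 95% interval, limma adjusted p = 0.617) and was not called. It also lost its call without sh-LINC00958 replicate 1 (limma adjusted p = 0.0596) or 3 (0.0568) and without sh-NC replicate 1 (0.128) or 2 (0.135). The same removal left LINC00958 (46.7% G and C) at -1.005, with a limma adjusted p of 0.0130.

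**Figure D2:**
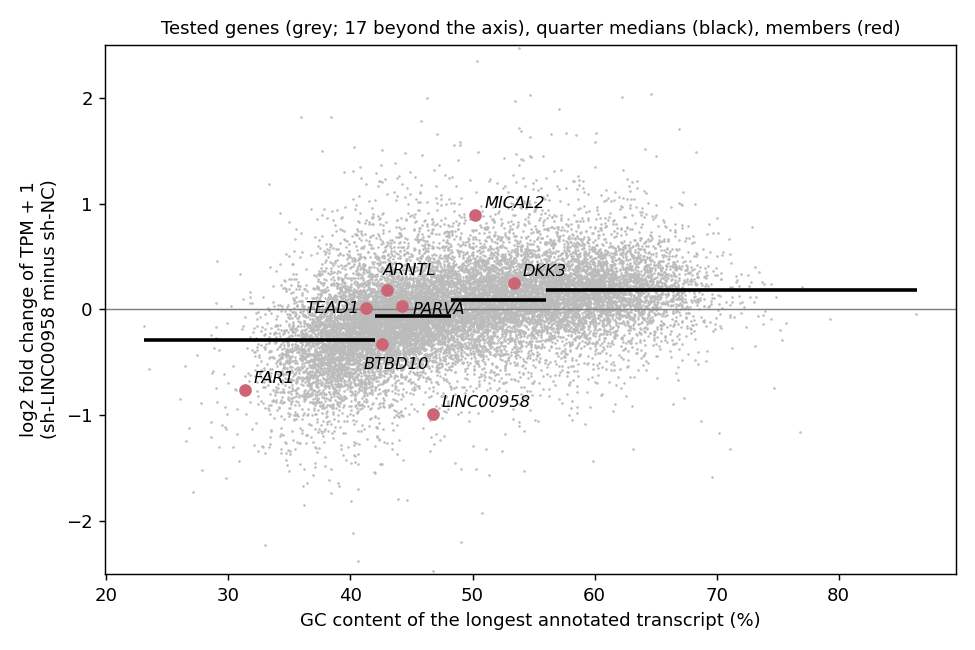
Log2 fold change (vertical) against the GC content of the longest transcript (horizontal, %) for the tested genes in GENCODE 29 (grey), with the median of each of 4 bins by GC content (black bars) and the members in red. FAR1 lies at 31.3% G and C, where most genes are below 0, and LINC00958 and MICAL2 lie in the middle of the GC range, away from the medians of their bins.

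FAR1 was also among the nearer genes to LINC00958 in its pattern over the libraries. Likeness was the root mean square distance between log2(TPM + 1) profiles over the 5 libraries, each centred on its own mean. FAR1 had a distance of 0.211 and ranked 525 among 12095 genes with a mean of at least 5 TPM. The nearest of all were AC124864.2 (0.0402), AGPAT5, a lysophosphatidic acid acyltransferase gene (0.0438), DR1, a repressor that binds TBP (0.0616), the calmodulin gene CALM2 (0.0727) and the nuclear lamina gene TMPO (0.0730). AGPAT5, for instance, measured 34.2, 33.3 and 30.2 TPM with the hairpin and 60.1 and 65.5 TPM without. The difference between the groups enters this measure, so it adds no independent evidence. BTBD10 ranked 2683, PARVA 5847 and MICAL2 11833.

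The FAR1 promoter, from 250 bases before to 50 after the start of the RefSeq gene (GRCh38.p14, plus strand, chr11:13668418-13668717), is shown because its base composition is the reverse of the transcript's, at 69.3% G and C. Capitals mark the motifs searched on both strands, which were CCAAT (the CCAAT box, ATTGG on the other strand), CACGTG (the E-box bound by clock factors among others), GGAATG (the core of TEAD sites) and TGACTCA (an AP-1 site).
FAR1: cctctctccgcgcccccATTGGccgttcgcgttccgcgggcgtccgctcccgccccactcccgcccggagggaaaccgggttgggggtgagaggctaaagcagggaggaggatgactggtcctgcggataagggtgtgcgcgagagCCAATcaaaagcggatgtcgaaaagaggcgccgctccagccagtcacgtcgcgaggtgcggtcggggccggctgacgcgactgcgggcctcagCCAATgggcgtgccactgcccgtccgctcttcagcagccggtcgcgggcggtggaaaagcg

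The CCAAT motif occurs 3 times in it, without overlap. At least 1 copy was present in 34.6% of 35116 RefSeq promoters of this length. None of the other motifs is in this window.

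MICAL2, on the plus strand at chr11:12094008-12359144, measured 52.1, 33.3 and 48.7 TPM in sh-LINC00958 and 23.5 and 23.0 TPM in sh-NC. All hairpin libraries were higher, but replicate 2 was closer to the controls than the others were. The mean was 192.4% of the control mean, and the log2 fold change was 0.89 (SE 0.197, 95% interval 0.41 to 1.37, limma adjusted p = 0.0460). The exact two-sided permutation test on TPM gave p = 0.2. MICALCL had 3.96, 2.57 and 3.19 TPM with the hairpin and 1.28 and 1.496 TPM in the controls, also without overlap. Its log2 fold change was 0.82 (95% interval 0.35 to 1.29), and it missed the threshold with a limma adjusted p of 0.0522. The 2 rows may not be separate genes. The MICALCL identifier is not in GENCODE 29, whose MICAL2 span reaches 12359144, and RefSeq lists MICALCL as a synonym of MICAL2, so how reads were shared between the rows is uncertain.

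MICALCL made up 7.07%, 7.16% and 6.13% of the summed TPM of the pair with the hairpin and 5.16% and 6.11% in the controls. Added together, a choice made after seeing the data, the pair gave a log2 fold change of 0.91 (limma adjusted p = 0.0435). Without sh-LINC00958 replicate 2 the MICAL2 fold change was 1.08 and both rows were called. MICAL2 lost its call without sh-LINC00958 replicate 1 (limma adjusted p = 0.127), without replicate 3 (0.115), and without either control library (0.172 and 0.191). Removal of the GC and length trend left the fold change at 0.84 with a limma adjusted p of 0.0762.

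The 2 RefSeq promoters of MICAL2 (GRCh38.p14, plus strand) are shown because the gene has several starts that 1 TPM value merges. The first is chr11:12138140-12138439 and the second chr11:12161829-12162128, with the motifs named above in capitals.
MICAL2, first: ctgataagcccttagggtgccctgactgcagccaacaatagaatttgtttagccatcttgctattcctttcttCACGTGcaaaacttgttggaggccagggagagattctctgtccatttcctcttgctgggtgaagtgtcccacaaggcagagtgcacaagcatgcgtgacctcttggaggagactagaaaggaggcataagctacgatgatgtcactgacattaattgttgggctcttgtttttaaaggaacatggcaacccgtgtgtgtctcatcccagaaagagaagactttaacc
MICAL2, second: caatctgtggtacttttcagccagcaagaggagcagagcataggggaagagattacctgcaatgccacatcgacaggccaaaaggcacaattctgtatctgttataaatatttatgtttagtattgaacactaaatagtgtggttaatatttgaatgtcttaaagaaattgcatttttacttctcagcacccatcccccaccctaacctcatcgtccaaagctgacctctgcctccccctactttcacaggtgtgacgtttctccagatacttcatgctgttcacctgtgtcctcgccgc

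The first holds 1 E-box motif, which 7.26% of RefSeq promoters have, and the second holds none of the 4 motifs. Their GC content was 47.0% and 44.0%, unlike the 69.3% of FAR1. Matches were found for 4 of the 10 genes in the promoter table, ARNTL (as BMAL1) and BTBD10 being the other two.

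TEAD1 ends 17.4 kb from LINC00958 and is transcribed towards it, from the plus strand (chr11:12674591-12944483). It measured 6.44, 21.04 and 22.9 TPM in sh-LINC00958 and 8.78 and 23.8 TPM in sh-NC. The low values were those of the library numbered 1 in each group, and the groups overlapped. Whether those values reflect the level of TEAD1 RNA or how reads were assigned to the gene cannot be told from TPM. The highest library exceeded the lowest 3.55-fold within sh-LINC00958 and 2.71-fold within sh-NC, more than in 97.8% and 97.6% of the tested genes. The log2 fold change was 0.02 with a 95% interval of -1.498 to 1.53 (limma adjusted p = 0.988), so a change of more than 2-fold in either direction was within the interval. Its sign turned with single libraries, from -0.65 without sh-NC replicate 1 to 0.69 without sh-NC replicate 2. Without both libraries numbered 1, a choice made after seeing these values, it was -0.11 (limma adjusted p = 0.825).

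PARVA, between MICAL2 and TEAD1 (plus strand, chr11:12377185-12535356), varied little in both groups. It measured 38.2, 38.6 and 37.99 TPM with the hairpin and 36.8 and 38.2 TPM in the controls. Only 0.490% of the tested genes had a smaller ratio of highest to lowest library within sh-LINC00958 (1.015), and 21.4% did within sh-NC (1.039), where FAR1 (1.012) and MICAL2 (1.02) were closer still. The PARVA log2 fold change was 0.03 with a 95% interval of -0.17 to 0.22 (limma adjusted p = 0.841), a narrow interval on which a 2-fold change lies outside.

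RASSF10 (plus strand, chr11:13009577-13012106) is the nearest listed gene on the other side, with its start 20.03 kb from that of LINC00958 and in the opposite direction. It was barely detected, at 0.927, 0.782 and 0.385 TPM with the hairpin and 0.673 and 1.14 TPM in the controls. The groups overlapped, and RASSF10 did not pass the filter, so it has no fitted value.

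ARNTL (plus strand, chr11:13276652-13387266) and BTBD10 (minus strand, chr11:13388001-13463297) converge, and 734 bases separate their annotated ends. Since the strand setting of the counting is not given, reads near those ends could belong to either. ARNTL measured 10.2, 6.53 and 9.95 TPM with the hairpin and 7.93 and 7.21 TPM in the controls, which gave 0.19 on the log2 scale (95% interval -0.31 to 0.69; limma adjusted p, 0.578). BTBD10 measured 27.3, 37.6 and 32.98 TPM with the hairpin and 34.05 and 49.03 TPM in the controls, which gave -0.33 on the log2 scale (95% interval -0.81 to 0.16; limma adjusted p, 0.314). The groups overlapped for both genes, and neither was called.

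DKK3, the farthest of the neighbours (minus strand, chr11:11963106-12009769), measured 17.9, 18.7 and 17.3 TPM with the hairpin and 16.2 and 13.9 TPM in the controls. The groups did not overlap, as for 49.9% of all tested genes. The log2 fold change was 0.25 (95% interval -0.02 to 0.52, limma adjusted p = 0.193), and DKK3 was not called.

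Called genes of both directions lay in the stretch of chromosome around LINC00958. Of 182 annotated genes within 5 Mb on either side, 64 were tested, 3 of them called higher and 5 lower, and 32 had a positive and 32 a negative log2 fold change. Over all tested genes 4.12% were called higher and 5.68% lower, and no excess around LINC00958 is read from these counts. The median of the 64 was -0.0050. Whether genes next to each other moved together was not tested. Within 1 Mb there were 10 tested genes, 8 of which are members here. On the side of lower coordinates 3 of 40 were called higher and 2 lower, and on the other side limma called 0 of 23 higher (also 0 at an unadjusted p under 0.05) and 2 lower. The counts per side are too small to set against the shares over all tested genes. The medians were 0.03 and -0.06, and the difference between the sides was not tested.

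Besides LINC00958, FAR1 and MICAL2, the called genes of this stretch were EIF3F, DENND5A, IPO7, RNF141 and PIK3C2A, all more than 2 Mb away. EIF3F, a subunit gene of translation initiation factor eIF3, rose from 52.6 ± 7.40 TPM (SD, n = 2) to 75.5 ± 3.74 TPM (SD, n = 3), and DENND5A, which encodes an exchange factor for Rab GTPases, from 48.9 ± 0.154 to 77.7 ± 6.65 TPM. RNF141, a RING finger protein gene, fell from 28.2 ± 2.89 to 13.7 ± 2.11 TPM, at a log2 fold change of -0.995 (SE 0.156, limma adjusted p = 0.0246), as large as that of LINC00958. IPO7, a nuclear import receptor gene, and PIK3C2A, a class II phosphoinositide 3-kinase gene, fell with log2 fold changes of -0.43 and -0.51. With the GC and length trend removed, EIF3F (0.73) and DENND5A (0.58) were still called, while IPO7 (-0.09), RNF141 (-0.56) and PIK3C2A (-0.15) were not. Without a filter none of them was called, and without the trend in eBayes only DENND5A and RNF141 were. EIF3F also lost its call without sh-LINC00958 replicate 2. None of the 5 was called without sh-LINC00958 replicate 1 or 3, or without either control library.

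**Figure D3:**
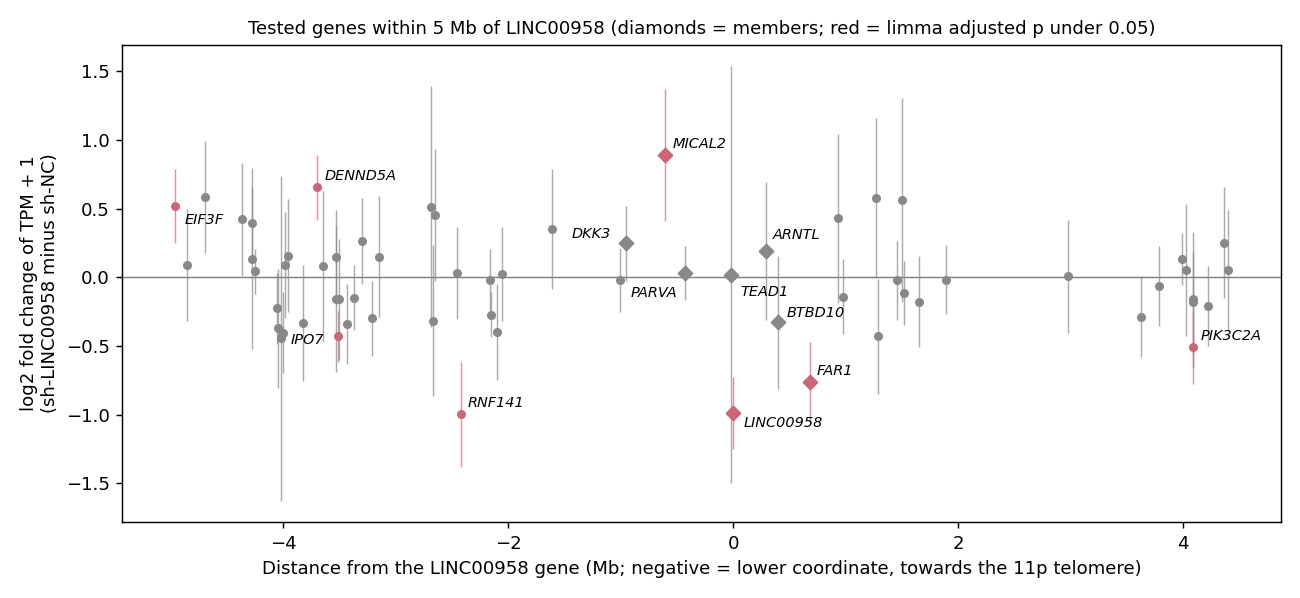
Log2 fold change with its 95% interval (vertical) of the 64 tested genes within 5 Mb of LINC00958 against their distance from it (horizontal, Mb). Diamonds are members and red marks genes past the threshold; called genes of both directions are scattered among genes near 0, and TEAD1, next to LINC00958, has the interval from -1.498 to 1.53.

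Genes that work with the neighbours, or are related to them, were listed in 8 groups, members included. Of the 76 tested, 11 were called (14.5%), beside 9.80% of all tested genes, and nothing is read from counts in groups this small. The same holds for counts at an unadjusted p under 0.05, a level that many of all tested genes reached. MKL2, for instance, had an unadjusted limma p of 0.0495 and a limma adjusted p of 0.162. The share of all tested genes under that level is not given here. In the Hippo pathway group, 1 of 7 tested TEAD factors and coactivators rose, TEAD4, from 50.2 ± 0.953 to 71.3 ± 5.57 TPM, at a log2 fold change of 0.50 (limma adjusted p = 0.0342). The group's median was 0.02. The coactivator genes YAP1 (-0.23) and WWTR1 (-0.03), which encodes TAZ, were not called. Of the adhesion complex that contains parvin, 2 of 9 tested genes rose. These were ILK, the integrin-linked kinase, with a log2 fold change of 0.52 (limma adjusted p = 0.0213), and TLN1, talin, which links integrins to actin, with 0.53 (0.0183). PARVA itself had 0.03 and its paralogue PARVB -0.02.

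MICAL2 and SRF, a transcription factor whose cofactors respond to actin, rose among 9 tested genes of the MICAL group. Limma called 0 lower, with 5 higher and 1 lower at an unadjusted p under 0.05. SRF measured 32.9, 32.5 and 33.1 TPM with the hairpin and 23.6 and 21.4 TPM in the controls. The SRF cofactor genes MKL1 (0.17) and MKL2 (-0.47) were not called. The group's median was 0.29, with MICAL2 and MICALCL counted apart. With the GC and length trend removed it was 0.03, and 0 of 8 tested genes were called. In the RASSF family, RASSF1 rose (0.69) and RASSF3 fell (-0.46) among 6 tested members.

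Of 20 tested circadian clock genes, 2 fell and 0 rose by limma, with 3 lower and 2 higher at an unadjusted p under 0.05. CLOCK, which encodes the dimer partner of BMAL1, went from 29.4 ± 2.29 to 16.4 ± 2.63 TPM at a log2 fold change of -0.82 (SE 0.148, limma adjusted p = 0.0310). ARNTL2, the paralogue of ARNTL, fell by 0.56 on the log2 scale (limma adjusted p = 0.0371). ARNTL itself, the member at this locus, was not called. The repressor genes PER1 (0.47), PER2 (-0.09), CRY1 (-0.18) and CRY2 (-0.12) and NR1D1 (0.26) were not called either. NR1D2, the paralogue of NR1D1, had 12.3, 15.05 and 11.7 TPM with the hairpin and 18.9 and 22.7 TPM in the controls, without overlap, and missed the threshold at -0.64 (limma adjusted p = 0.0524). The group's median was -0.04.

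Among 13 tested ether lipid and peroxisome genes, FAR1 and AGPS fell and 0 rose by limma, with 3 lower and 2 higher at an unadjusted p under 0.05. AGPS encodes the enzyme that puts the fatty alcohol from FAR1 into the ether bond, and went from 30.04 ± 1.91 to 18.97 ± 0.883 TPM at a log2 fold change of -0.64 (SE 0.0986, limma adjusted p = 0.0238). GNPAT, the enzyme of the step before, had -0.06 and was not called. The median was -0.11, and 0.03 with the GC and length trend removed, when CHPT1, a choline phosphotransferase gene, was called higher (0.51) and FAR1 and AGPS (-0.27) were not called. Limma called 0 of 6 tested Dickkopf and receptor genes, with 0 at an unadjusted p under 0.05. It also called 0 of 6 AKT regulators related to BTBD10, with 3 higher and 1 lower at an unadjusted p under 0.05. As above, nothing is read from these counts.

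With the trend on GC content and length taken out, 3 of the 9 related genes named as changed besides FAR1 and MICAL2 were still called, namely ILK, TLN1 and RASSF3. TEAD4, RASSF1, SRF, ARNTL2, CLOCK and AGPS were not. None of the 9 was called without sh-LINC00958 replicate 1 or 3. The groups did not overlap for any of the 9, so leaving out 1 library could not turn their direction.

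**Figure D4:**
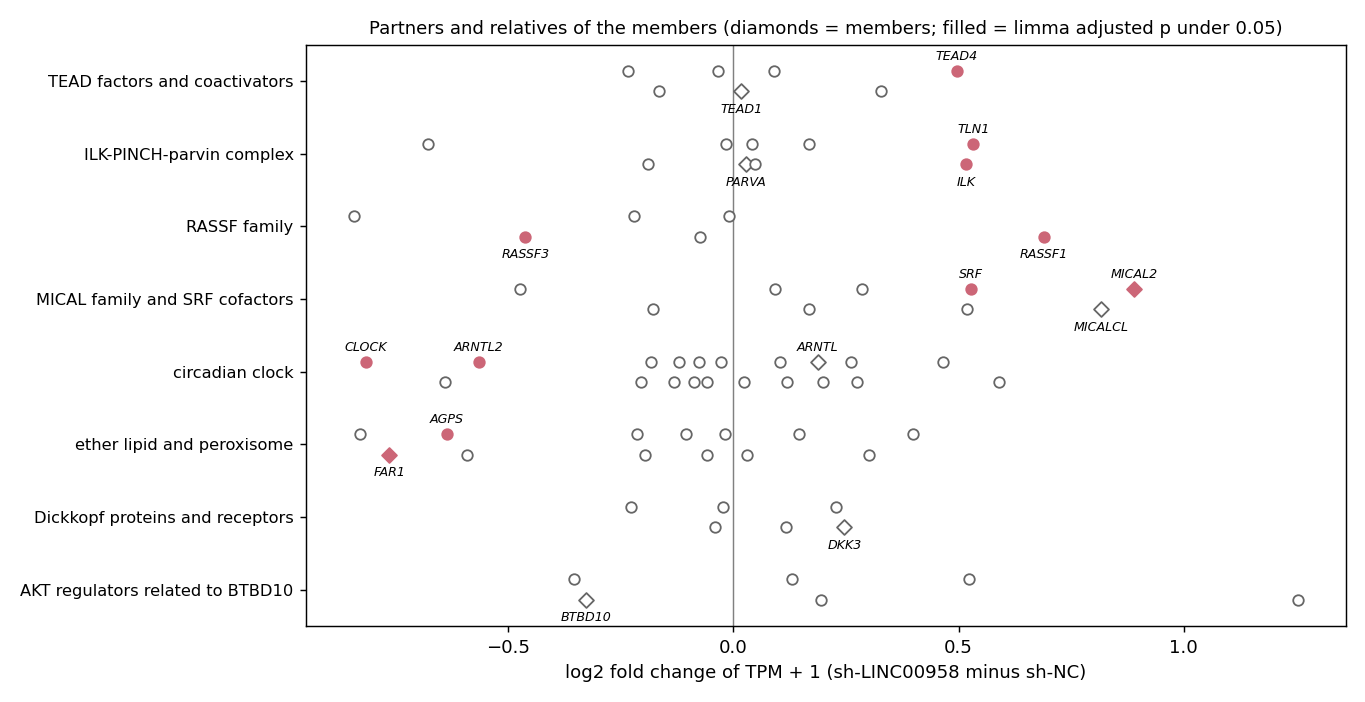
Log2 fold change (horizontal) of the tested genes in 8 groups of partners and relatives of the members (rows; diamonds are members, filled symbols are past the threshold). Most symbols are open and spread on both sides of 0, with called falls in the clock and ether lipid rows, called rises in the TEAD, parvin and MICAL rows, and 1 of each in the RASSF row.

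**Figure D5:**
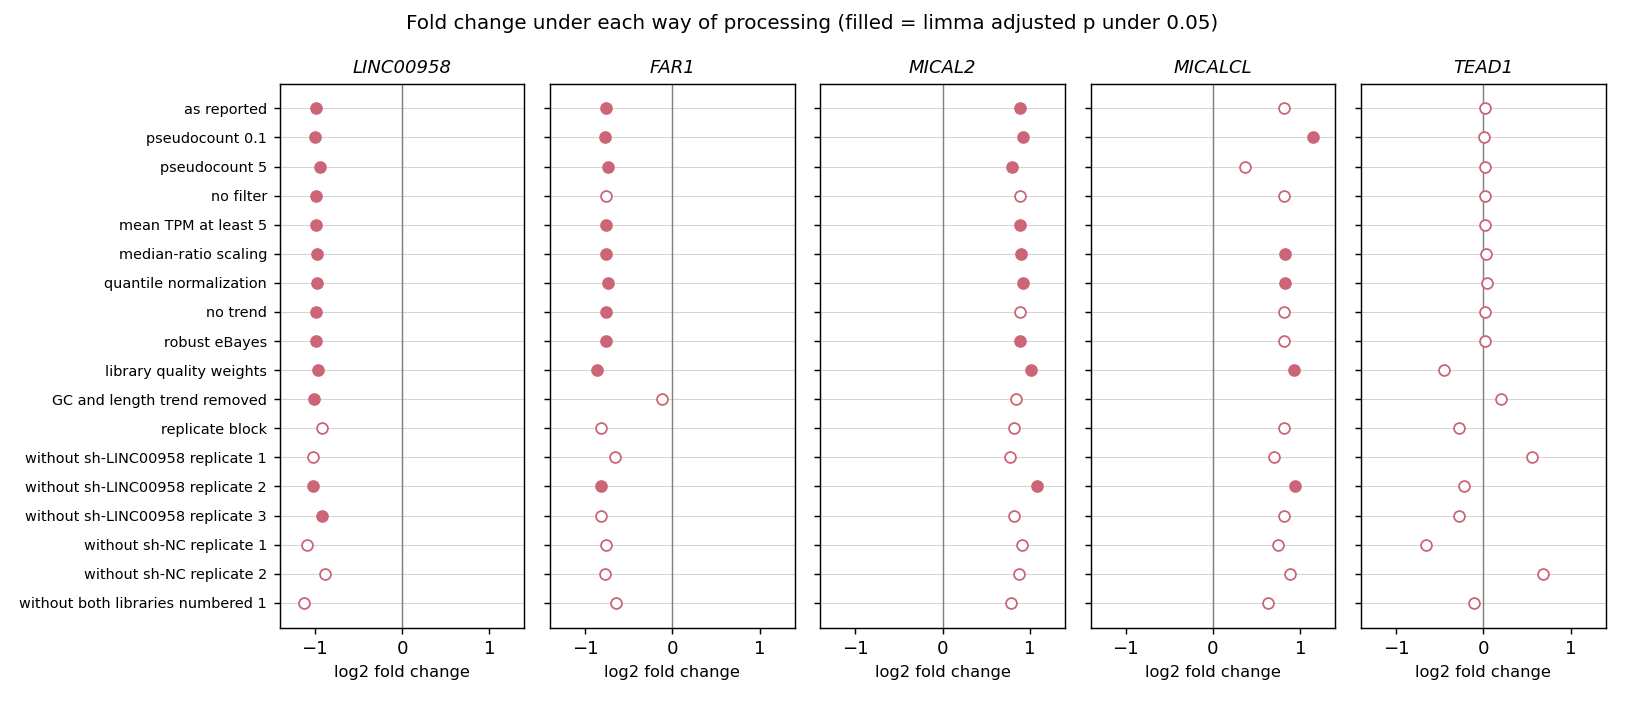
Log2 fold change (horizontal) of 5 members under each way of processing (rows), with filled symbols where the limma adjusted p is under 0.05. LINC00958 stays near -1, FAR1 is near 0 when the GC and length trend is removed, MICAL2 and MICALCL stay above 0, and TEAD1 changes side; MICALCL has no value where it lacks annotation or does not reach a mean of 5 TPM.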

How the data were processed

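The deposited table gives TPM per gene and library, made by the authors. Tools named in the submitters' processing notes are HISAT2 2.0, StringTie 1.3.3b, Trimmomatic 0.36 and FastQC 0.11.2, with GRCh38. No source used here gives an annotation release or a strand setting. Of 58174 gene IDs, 57836 were found in GENCODE 29 (GRCh38), the source of coordinates, GC content and length (longest transcript).

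TPM + 1 was log2 transformed and fitted with limma 3.58.1 in R 4.3.3 (lmFit, eBayes with a trend) on all 17049 genes with a mean of at least 1 TPM, with two-sided p-values, adjusted over these genes by Benjamini-Hochberg, and a threshold of 0.05. Fold changes on this scale understate those of low genes. The fit was checked on simulated data with planted changes larger than that of any member and the same spread for every gene. That check does not cover smaller changes, a spread that differs between genes, or the GC trend. GC and length trends were splines with 5 degrees of freedom each, removed per library. One listed gene and the LINC00958 sequence are not reported here, and the counts of the related lists leave that gene out. Members and lists were chosen with earlier results of these data known. Named were all members, every called gene of the 5 Mb window and the related lists, and the 5 genes nearest LINC00958 in profile. In fits that leave 1 sh-NC library, it is assumed to vary like the other group.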

Additional observations from a re-analysis of the deposited data

How the results depend on the processing

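Over 17 alternatives LINC00958 was negative throughout, from -0.89 to -1.12. It lost its call in 5, namely with the replicate block (log2 fold change -0.92, limma adjusted p = 0.104), without both libraries numbered 1 (-1.12), and in 3 of the 5 fits without 1 library (-0.89 to -1.09 over them). Nothing in the labels says that the replicate numbers pair the samples. Deviations from group means of same-numbered libraries correlated at 0.0013 and 0.0497 across 17049 genes. Those of sh-LINC00958 replicate 3 and sh-NC replicate 1 correlated at 0.0483. The deviations of 2 controls mirror each other, so these values cannot show whether the numbers mark shared cultures. The block leaves 1 residual degree of freedom. With the block 2 genes were called in all, and 0 members and 0 window genes.

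Genes called over the transcriptome numbered 1671, against 476 without a filter, 889 without a trend, 3279 with library quality weights, 789 with the GC and length trend removed, 8 without both libraries numbered 1, and 16 to 2396 without 1 library. Members called numbered 3, against 1 without a filter or with the GC and length trend removed, 0 without both libraries numbered 1, and 0 to 4 without 1 library. Window genes called numbered 8, against 2 without a filter, 4 without a trend, 3 with the GC and length trend removed, 0 without both libraries numbered 1, 0 to 12 without 1 library, 4 of 24 within 2.5 Mb and 17 of 134 within 10 Mb.

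FAR1 stayed negative and MICAL2 and MICALCL positive throughout. The groups did not overlap for these genes or for LINC00958, so in the fits without 1 library their direction could not turn. FAR1 also lost its call without sh-LINC00958 replicate 1 (limma adjusted p = 0.0596) or 3 (0.0568), sh-NC replicate 1 (0.128) or 2 (0.135), and without a filter (0.0661). MICAL2 lost its call without a filter (0.122) or a trend (0.0680). MICALCL gained one with a pseudocount of 0.1, both scalings, library weights and without sh-LINC00958 replicate 2. TEAD1 turned negative with library weights (-0.45), the block (-0.28), and without both libraries numbered 1 (-0.11), and ranged from -0.65 to 0.69 without 1 library (-0.22 and -0.28 without sh-LINC00958 replicates 2 and 3). The causes were not tested. Leaving out both libraries numbered 1 and summing MICAL2 and MICALCL were chosen after seeing the data.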
